A study of Mus musculus with 6 samples.

Results

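The mucus gel genes Muc2, Fcgbp, Clca1, Zg16 and Tff3 were followed across the epithelial cells of the mouse jejunum. All 5 were found by Ensembl identifier and symbol in both deposited tables, out of 5671 genes that the tables share and that carry a symbol. They were chosen by name as the secreted proteins of the goblet cell's gel and not for a measured value. The cells came from 3 mice, 120 days old and of mixed CD-1:C57BL/6 background, for which the labels give no allele or treatment. From each mouse the anterior jejunum (piece 3 of 12 of the small intestine) and the posterior jejunum (piece 7 of 12) were taken, which gave 3 anterior and 3 posterior samples. Cells of villi and crypts were mixed in equal parts, and EpCAM-positive cells that excluded DAPI, which enters dead cells, were sorted singly into plates for MARS-seq, a method that counts each captured transcript once by a unique molecular identifier (UMI).

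Goblet cells secrete the gel that covers the intestinal epithelium. Its scaffold is the mucin MUC2, a large protein whose O-glycans bind water and which is packed into granules as disulphide-linked polymers. FCGBP carries von Willebrand factor D domains like those of MUC2 and is found in the gel, CLCA1 is a secreted metalloprotease that cleaves MUC2, ZG16 is a small lectin that binds Gram-positive bacteria, and TFF3 is a trefoil peptide secreted with the mucin that promotes epithelial repair. In the small intestine this gel is loose and can be removed easily, and goblet cells arise from the same secretory progenitors as Paneth, tuft and enteroendocrine cells.

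On GRCm38 with the GENCODE vM21 annotation, all 5 are protein-coding genes and 3 of them lie on chromosome 7, far from each other. Muc2 (ENSMUSG00000025515) spans chromosome 7 from 141690340 to 141754693 on the plus strand, Fcgbp (ENSMUSG00000047730) spans chromosome 7 from 28071236 to 28120862 on the plus strand, and Zg16 (ENSMUSG00000049350) spans chromosome 7 from 127050156 to 127087328 on the minus strand. Clca1 (ENSMUSG00000028255) spans chromosome 3 from 145003817 to 145032776 and Tff3 (ENSMUSG00000024029) chromosome 17 from 31125306 to 31129646, both on the minus strand. Fcgbp has a neighbour, 9530053A07Rik, that begins 8603 bases beyond its end on the same strand and that RefSeq lists with FCGBP as a synonym. Reads that the counting could have split between the pair cannot be told apart here. The neighbour averaged 4.15 ± 0.50 UMIs per 10000 in goblet-like cells (SD, n = 6 samples). The long noncoding gene Gm44939 lies on the other strand within the span of Zg16, and the use of strand in counting is not stated.

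The sequence upstream is shown for Muc2 and Fcgbp, the only 2 members for which RefSeq promoter sequence (GRCm38.p6) was at hand. A link between these sequences and the levels of the 2 genes was not tested. The letters run 5′ to 3′ on the plus strand up to the base before the annotated start, and capitals mark CAGCTG. This is an E-box, the kind of site bound by basic helix-loop-helix dimers such as ATOH1 with an E protein. ATOH1 is needed for goblet cells to form, and ID2, the protein in the title of the study, binds E proteins but not DNA.
Muc2, chr7:141690090-141690339 (+): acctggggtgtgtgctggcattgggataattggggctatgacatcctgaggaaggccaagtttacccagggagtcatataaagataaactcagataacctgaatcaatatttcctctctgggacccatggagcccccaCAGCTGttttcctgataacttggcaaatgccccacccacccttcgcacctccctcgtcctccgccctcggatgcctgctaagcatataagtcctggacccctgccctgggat
Fcgbp, chr7:28070986-28071235 (+): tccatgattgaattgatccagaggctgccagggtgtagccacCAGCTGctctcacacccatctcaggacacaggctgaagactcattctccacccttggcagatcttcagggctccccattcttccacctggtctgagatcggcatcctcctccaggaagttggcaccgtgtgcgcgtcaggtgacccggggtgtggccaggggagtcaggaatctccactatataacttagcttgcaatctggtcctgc
Each window held CAGCTG once, 112 bases upstream of the start of Muc2 and 208 bases upstream of the start of Fcgbp. The motif is its own reverse complement and was found in 13.0% of 32851 windows of 250 bases upstream of RefSeq starts. CAGATG, another E-box searched on both strands, was in neither window and in 14.4% of all. The forkhead core TGTTTAC, also searched on both strands, was in neither window and in 3.17% of all. A match describes letters only and says nothing of binding. The promoters of Clca1, Zg16 and Tff3 are not shown.

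In all, 2043 cells were analysed, 1028 anterior and 1015 posterior, with 1640578 to 3157105 UMIs per sample and a median of 2766 to 8689.5 UMIs per cell in each sample. They were sequenced in 18 pools, and 186 cell barcodes recur across pools but none within a pool. Levels are UMIs per 10000 UMIs of the cell (CP10K), averaged over the cells of a class in a sample, so that a level is a share of a cell's counted transcripts and not an absolute amount. Cells were clustered on their other genes, with the 5 mucus gel genes left out of both the clustering and the naming. Of the 10 clusters, clusters 1 and 8 were goblet-like and together held 616 cells (30.2%). The rest were 881 enterocyte-like, 197 crypt progenitor-like, 118 enteroendocrine-like and 38 tuft-like cells, and 193 cells of cluster 6 in which Paneth and goblet markers were both raised and which stay unnamed. In cluster 8 all 22 of 22 measured goblet markers other than the mucus gel genes were raised, and in cluster 1 it was 18 of 22. Enterocyte-like cells came from clusters 2, 3, 4 and 7. Of 23 measured enterocyte markers, 20, 14 and 15 were raised in clusters 2, 4 and 7, but only 6 in cluster 3. Cluster 3 held 78 of 108 anterior and 62 of 74 posterior enterocyte-like cells of mouse 1. In mice 2 and 3 it held 18 of 122 and 21 of 178 anterior and 18 of 223 and 20 of 176 posterior ones. Comparisons with enterocyte-like cells thus rest largely on cluster 3 in mouse 1. The samples of mouse 1 stood apart in both regions. Goblet-like cells made up 41.0% of its anterior and 54.6% of its posterior cells, against 7.5% to 16.2% of the cells in the 4 samples of mice 2 and 3.

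All 5 genes had their highest level in goblet-like cells in each of the 6 samples. Muc2 measured 407, 366 and 347 CP10K in the anterior goblet-like cells of mice 1, 2 and 3, and 514, 444 and 482 CP10K in their posterior goblet-like cells. Fcgbp measured 667, 421 and 425 CP10K in anterior and 583, 418 and 368 CP10K in posterior goblet-like cells. All anterior samples were below all posterior ones for Muc2, while the regions overlapped for Fcgbp.

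Tff3 had 1271, 1814 and 2077 CP10K in anterior and 1056, 1721 and 1989 CP10K in posterior goblet-like cells of mice 1, 2 and 3. Zg16 had 739, 1398 and 1550.1 CP10K in anterior and 596, 812 and 1523 CP10K in posterior goblet-like cells. Clca1 had 35.2, 162 and 119 CP10K in anterior and 32.9, 128 and 131 CP10K in posterior goblet-like cells. For Zg16, Tff3 and Clca1 both samples of mouse 1 were the lowest of the 6, and for Fcgbp both were the highest. The regions overlapped for Zg16, Tff3 and Clca1.

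Together the 5 genes took up a large part of a goblet-like cell's transcripts. Their summed level was 3119, 4161 and 4518 CP10K in the anterior and 2782, 3523 and 4493 CP10K in the posterior goblet-like cells of mice 1, 2 and 3. Single goblet-like cells ranged from 1.47% to 70.5% of their UMIs in the 5 genes, with a median of 29.6%. The share was over 10% in 594 of 616 goblet-like cells, in 47 of 193 unnamed cells, in 4 of 118 enteroendocrine-like cells and in 5 of 881 enterocyte-like cells, and in 0 of 197 crypt progenitor-like and 0 of 38 tuft-like cells. Of the goblet-like cells, 603 of 616 (97.9%) were also goblet-like when the 5 genes entered the clustering and the naming.

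**Figure D1:**
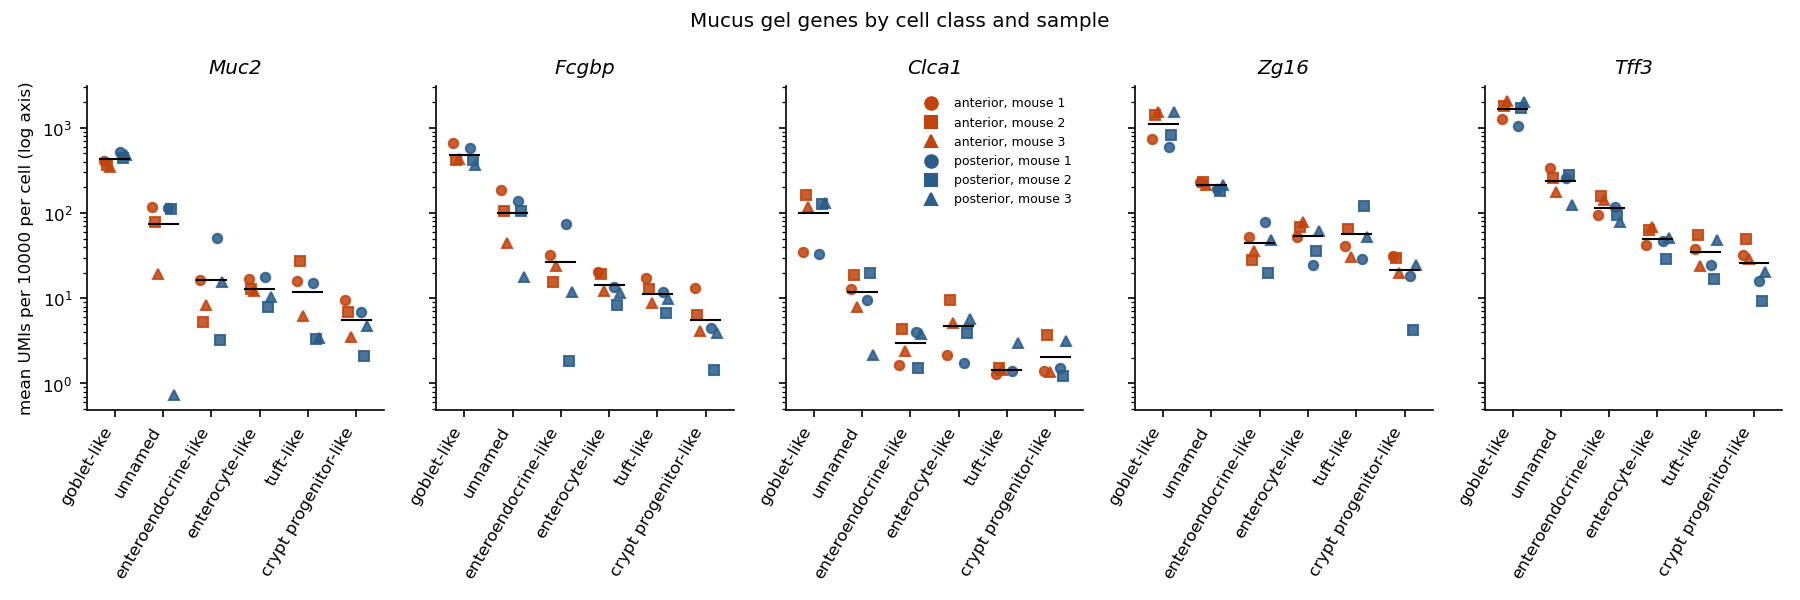
Mean level of each mucus gel gene (UMIs per 10000, log axis) by cell class, one point per sample, coloured by region and shaped by mouse, with a black line at the mean of the samples. The goblet-like points lie above those of every other class for all 5 genes, reaching 2077 CP10K for Tff3 and 162 CP10K for Clca1, and 1 tuft-like sample with 0 CP10K of Clca1 has no point on the log axis.

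Next in order came the unnamed cells of cluster 6, whose median depth of 1139 UMIs was the lowest of all classes. They averaged 73.6 ± 51.6 CP10K of Muc2, 99.5 ± 61.7 of Fcgbp, 11.9 ± 6.75 of Clca1, 211 ± 20.4 of Zg16 and 240.0 ± 77.0 of Tff3 (SD, n = 6 samples), and for none of the 5 did their range reach that of the goblet-like samples. Among the remaining classes the order differed from gene to gene. Enteroendocrine-like, enterocyte-like, tuft-like and crypt progenitor-like cells overlapped with the next class in that order for Muc2, Fcgbp, Clca1 and Zg16. The exception was Tff3, whose enteroendocrine-like samples lay above all enterocyte-like samples as long as all cells were counted.

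The members varied among goblet-like cells in 2 ways. Muc2, Fcgbp and Tff3 were the more even, with a median coefficient of variation over the 6 samples of 0.47, 0.475 and 0.428 between cells of a sample, and Zg16 and Clca1 were more variable at 0.885 and 0.911. The level of Zg16 followed the depth of the cell: within a sample, its Pearson correlation with the log2 of the cell's UMIs ranged from 0.614 to 0.930 over the 6 samples, and that of Clca1 from 0.367 to 0.781. That of Fcgbp was negative in all 6, from -0.613 to -0.232. Correlations across cells are given as descriptions, since cells of a sample share a library and a common total.

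The goblet-like clusters, made without these genes, differed in the same members. Leading genes were ranked against the median of all clusters and not against the other goblet-like cluster. Cluster 8 (126 cells, median 10307.5 UMIs) was led by Zg16, Retnlb, Clca1, Spink4 and Agr2. Cluster 1 (490 cells, median 1857.5 UMIs) was led by Ern2, Fcgbp, Muc2, Fer1l6 and Sytl2. The 10 leading genes of cluster 8 also held Tff3, Muc2 and Fcgbp, and those of cluster 1 also held Tff3. Zg16 averaged 2195 ± 457 CP10K in cluster 8 and 471 ± 66.7 CP10K in cluster 1 (SD, n = 6 samples each), a ratio of 3.91 to 5.35 that was above 1 in 6 of 6 samples. Clca1 averaged 172 ± 82.3 CP10K in cluster 8 and 56.0 ± 23.9 CP10K in cluster 1, with a ratio of 2.47 to 4.43, also in 6 of 6 samples. Retnlb encodes an antibacterial resistin-like protein and Agr2 a disulphide isomerase of the endoplasmic reticulum, while Ern2 encodes IRE1β, a sensor of endoplasmic reticulum stress found in mucous cells.

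Fcgbp went the other way, with 315 ± 96.6 CP10K in cluster 8 and 550.5 ± 103 CP10K in cluster 1, and was lower in cluster 8 in each of the 6 samples. Muc2 averaged 332 ± 43.6 CP10K in cluster 8 and 470.0 ± 98.5 CP10K in cluster 1 and was higher in cluster 8 in 1 of 6 samples. Tff3 differed least, at 1873 ± 462 CP10K in cluster 8 and 1504 ± 319 CP10K in cluster 1, with a ratio of 0.993 to 1.43. Thinned values were averaged over the pooled cells of all samples. With every cell thinned to 1500 UMIs, Zg16 stood at 2140 CP10K in cluster 8 and 500.2 CP10K in cluster 1, and Fcgbp at 335 CP10K in cluster 8 and 696 CP10K in cluster 1. Over pooled cells before thinning, Zg16 had 2106 CP10K in cluster 8 and 435 CP10K in cluster 1. Fcgbp then had 344 CP10K in cluster 8 and 647 CP10K in cluster 1. Thinning left out 2 cells of cluster 8 and 177 of cluster 1 as too shallow. Because clusters are made from the expression of the same cells, no test was set on these differences, and the part that depth plays in the split was not tested. Cluster 8 made up 18.9%, 43.8% and 46.2% of anterior and 12.9%, 33.3% and 52.0% of posterior goblet-like cells of mice 1, 2 and 3.

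**Figure D2:**
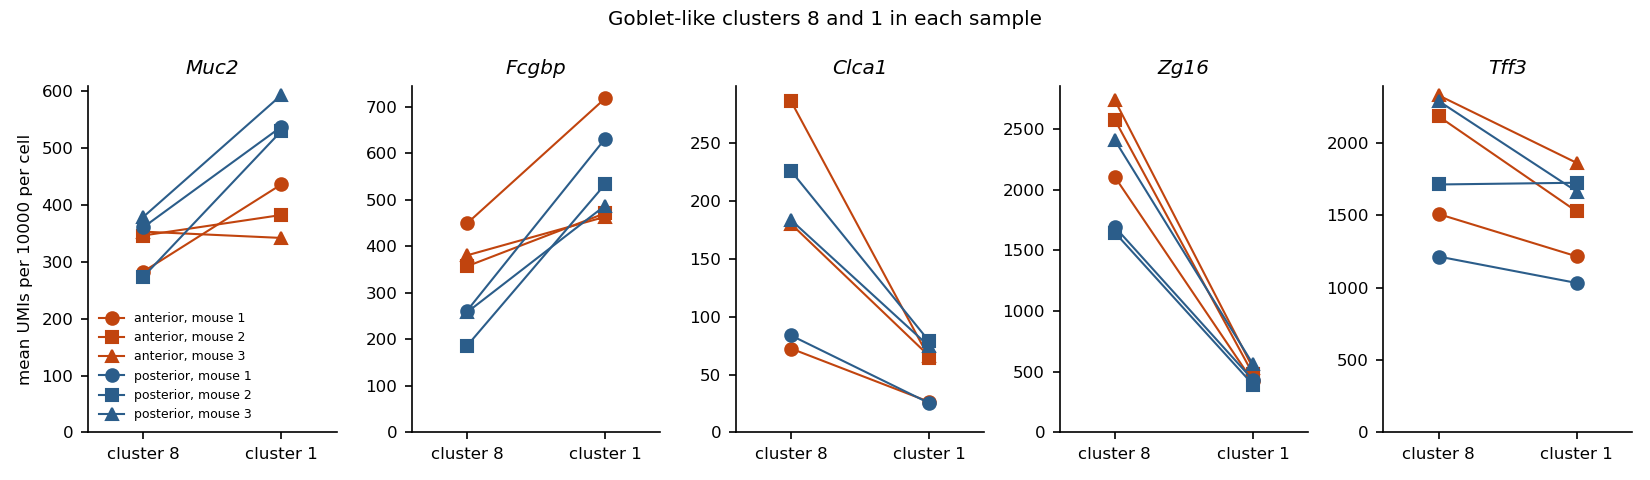
Mean level of each mucus gel gene (UMIs per 10000) in goblet-like clusters 8 and 1, with a line joining the clusters of each of the 6 samples. Zg16 and Clca1 slope down from cluster 8 to cluster 1 in 6 of 6 samples, Fcgbp slopes up in all 6, and Muc2 and Tff3 each have 1 sample against the rest.

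Within goblet-like cells the members formed pairs. Muc2 and Fcgbp correlated in every sample (Pearson's r of log2(CP10K + 1) across the goblet-like cells of a sample, 0.472 to 0.739, median 0.621), and each was the other's closest partner among the 1342 genes that were detected in goblet-like cells of every sample at a mean of at least 1 CP10K. Clca1 and Zg16 correlated at 0.380 to 0.746 (median 0.523) and Zg16 and Tff3 at 0.332 to 0.691 (median 0.521), and of the ranked genes Zg16 was the closest both to Clca1 and to Tff3. Muc2 and Tff3 followed at 0.354 to 0.576, and Clca1 and Tff3 at 0.227 to 0.462. Fcgbp and Tff3 ranged from -0.0989 to 0.526 (median 0.240). Tff3 thus went with members of both pairs. The samples held 21 to 279 goblet-like cells each.

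Over all goblet-like cells at this scaling, pairs of Muc2 or Fcgbp with Zg16 or Clca1 were weak or negative. Fcgbp and Zg16 ranged from -0.359 to 0.0625 (median -0.149), Fcgbp and Clca1 from -0.246 to 0.0955, Muc2 and Zg16 from -0.206 to 0.225, and Muc2 and Clca1 from -0.392 to 0.248. The negative medians, those of Fcgbp with Zg16 and with Clca1, were not kept under another scaling or within a single cluster. With every cell thinned to 1500 UMIs, Fcgbp with Zg16 kept a negative median (-0.171, above 0 in 2 of 6 samples). Fcgbp with Clca1 then had a median of 0.00205. Levels that share a total are tied, since more UMIs of one gene leave a smaller share for the others, while dividing by the UMIs of all other genes gives each pair a common divisor that can draw r upwards. Under the second scaling, Fcgbp and Zg16 correlated at 0.103 to 0.410 (median 0.286), and the median of all 10 pairs was positive. Muc2 with Fcgbp then had 0.666 to 0.807, still the highest median of the 10 pairs.

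The pairs were also read within each cluster, with as few as 12 cells in a sample. In cluster 8, the 5 samples with enough cells gave 0.687 to 0.922 for Muc2 with Fcgbp (median 0.834). In cluster 1 the 6 samples gave 0.220 to 0.574 for this pair. Its median there (0.396) lay below those of Muc2 with Tff3 (0.569) and Zg16 with Tff3 (0.425). Clca1 with Zg16 ranged from 0.00148 to 0.782 within cluster 8 and from -0.470 to 0.562 within cluster 1, where Clca1 had a median of 4 UMIs per cell. Pairs that were weak over all goblet-like cells were not all weak here. Within cluster 8 the median was 0.592 for Muc2 with Clca1, 0.581 for Fcgbp with Clca1 and 0.326 for Muc2 with Zg16. Within cluster 1 these medians were 0.0928, 0.252 and 0.327, beside 0.205 for Clca1 with Zg16. Fcgbp with Zg16 had a median of 0.415 within cluster 8 (-0.234 to 0.833, above 0 in 3 of 5 samples). Within cluster 1 its median was 0.2 (-0.354 to 0.433, above 0 in 5 of 6 samples). The median Spearman's rho of this pair was 0.148 within cluster 8 and 0.173 within cluster 1. All were read at the first scaling, under which the median of Fcgbp with Zg16 over all goblet-like cells was negative. The parts of scaling and of the mix of clusters in that sign were not tested.

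**Figure D3:**
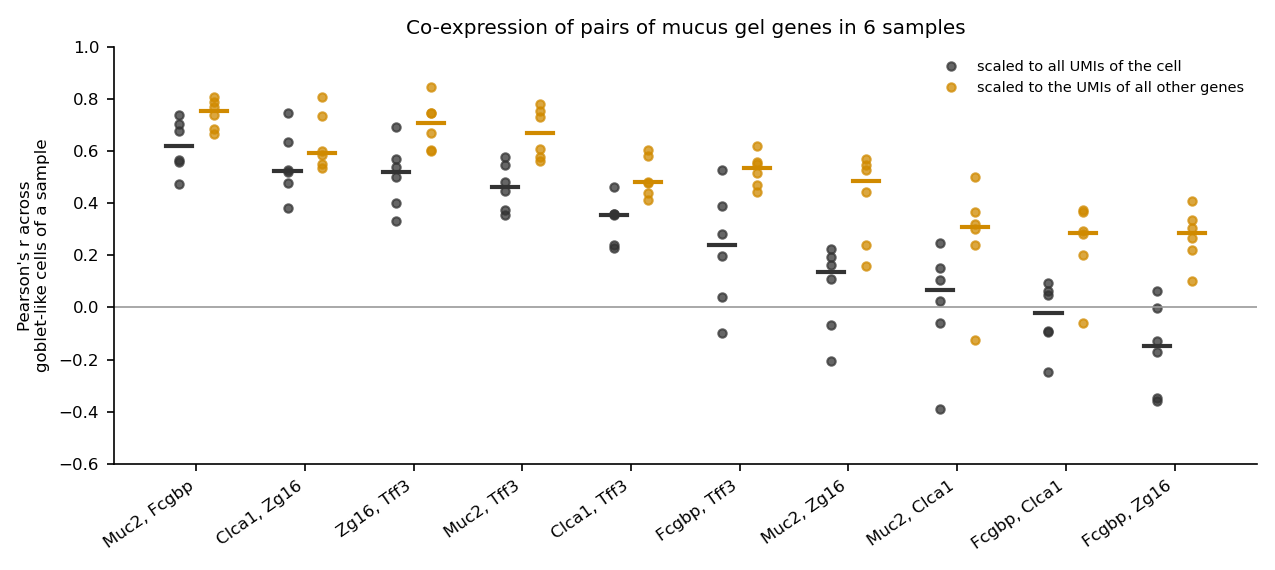
Pearson's r between the log2 levels of each pair of mucus gel genes across the goblet-like cells of a sample, one point per sample (n = 6) with a bar at the median, for levels scaled to all UMIs of the cell and to the UMIs of all other genes. Pairs run from the highest to the lowest median under the first scaling, from 0.621 for Muc2 with Fcgbp to -0.149 for Fcgbp with Zg16, and all medians under the second scaling are above 0.

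Genes outside the 5 were ranked for each member by mean r over the 6 samples. For Muc2, Fcgbp, Clca1 and Tff3 the closest of them lay below the closest member but above at least 1 other member, as Malat1 did for Fcgbp (mean r 0.353, against 0.620 for Muc2 and 0.223 for Tff3). For Zg16 the closest was above every member. Zg16 went with Ccl6 (mean r 0.637), a chemokine, with Lypd8 (0.627), a secreted protein that binds flagellated bacteria, and with Agr2 (0.596). Clca1 went with Ccl6 (0.435), Klk1 (0.428) and S100a6 (0.423), and Tff3 with S100a6 (0.426), Phgr1 (0.404) and 9530053A07Rik (0.380). Muc2 went with Mxd1 (0.295), an antagonist of MYC, with Ido1 (0.292), which degrades tryptophan, and with Camk2n1 (0.267). Fcgbp went with the nuclear RNAs Malat1 (0.353) and Neat1 (0.331) and with Gm26917 (0.314). Over the 31 class means of the samples, the genes most like the summed 5 were 9530053A07Rik (r = 0.929), Ccl6 (0.887), Ido1 (0.881), Sytl2 (0.87) and Lrrc26 (0.866), of which Ccl6 and Lrrc26 were among the markers used to name goblet-like cells.

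The regions are the groups of the study, and the comparison asks whether these genes differ between them within a class of cells. None of the 5 genes passed the test in goblet-like cells (limma on log2(mean CP10K + 0.2), 6 samples, Benjamini-Hochberg adjustment over 4270 genes). One gene of the 4270 passed (0.0234%), the secreted lectin Reg1, named after its value was seen, and it no longer passed without the anterior sample of mouse 2. At an unadjusted p under 0.05 there were 137 genes, none of them a member. No gene passed as lower in anterior cells (0%).

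Muc2 was the only member whose regions did not overlap. It averaged 373 ± 30.6 CP10K in anterior and 480.1 ± 35.1 CP10K in posterior goblet-like cells (SD, n = 3 each), a difference of -0.36 on the log2 scale (SE 0.24, adjusted p = 0.998), and was lower in the anterior sample in 3 of 3 mice, by 0.28 to 0.47. Of all genes tested, 6.67% had regions that did not overlap. With the mouse as a block, which holds because both regions came from the same animals, the adjusted p of Muc2 was 0.393. When mouse 1 was dropped, a setting added after the data were seen, the difference of Muc2 was -0.38 and did not pass without the block (adjusted p = 0.931). With the block the adjusted p was 0.0215, but that fit has 1 residual degree of freedom and takes its spread largely from other genes, so it was not counted as a pass.

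Zg16 averaged 1229 ± 431 CP10K in anterior and 977 ± 485 CP10K in posterior goblet-like cells (log2 difference 0.37, SE 0.29, adjusted p = 0.998). It was higher in the anterior sample in 3 of 3 mice, but by 0.03 in mouse 3 and 0.78 in mouse 2. Without mouse 1 it had 1474 CP10K in anterior and 1168 CP10K in posterior cells (0.40), which did not pass without the block (adjusted p = 0.960). The fit with the block gave that difference an SE of 0.052, far below the gap between the 2 mice just given, so its p is not a measure of the spread between mice and was not counted. Tff3 averaged 1721 ± 411 CP10K in anterior and 1589 ± 481 CP10K in posterior cells (log2 difference 0.14, SE 0.24), and Fcgbp 504 ± 141 CP10K in anterior and 456 ± 113 CP10K in posterior cells (0.14, SE 0.26). Both were higher in the anterior sample in 3 of 3 mice, with differences of at most 0.27. Clca1 averaged 105 ± 64.3 CP10K in anterior and 97.4 ± 55.8 CP10K in posterior cells (0.10, SE 0.46) and differed more between mice than between regions. In the fit without the mouse block, the 95% intervals of the log2 differences ran from -0.85 to 0.13 for Muc2, from -0.22 to 0.97 for Zg16 and from -0.84 to 1.03 for Clca1. With all 3 mice and the mouse as a block, the SE was 0.085 for Muc2, 0.099 for Zg16 and 0.16 for Clca1, and 0.083 for Fcgbp and 0.056 for Tff3. None of them passed then either (limma, adjusted p = 0.393, 0.541 and 0.947 for the first 3, and 0.895 each for Fcgbp and Tff3). That SE of Zg16 is also small beside its differences of 0.03 in mouse 3 and 0.78 in mouse 2.

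The regions were also compared within each goblet-like cluster. In cluster 1, Muc2 averaged 387 ± 47.2 CP10K in anterior and 553 ± 34.6 CP10K in posterior cells (log2 difference -0.52, SE 0.14, adjusted p = 0.215), lower in the anterior sample in 3 of 3 mice, while Fcgbp stood at 551 ± 145 CP10K in anterior and 550.4 ± 73.4 CP10K in posterior cells. In cluster 8, Fcgbp averaged 395 ± 47.9 CP10K in anterior and 235 ± 42.5 CP10K in posterior cells (log2 difference 0.76, SE 0.31, adjusted p = 0.927), higher in the anterior sample in 3 of 3 mice by 0.56 to 0.94, while Muc2 stood at 327 ± 38.8 CP10K in anterior and 338 ± 56.2 CP10K in posterior cells. Neither passed the limma test, which was run here without the mouse block. In it 1 of 4151 genes passed in cluster 1 (0.0241%) and 1 of 3591 in cluster 8 (0.0278%). These splits were chosen after the data were seen, and the posterior sample of mouse 2 held only 7 cells of cluster 8.

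**Figure D4:**
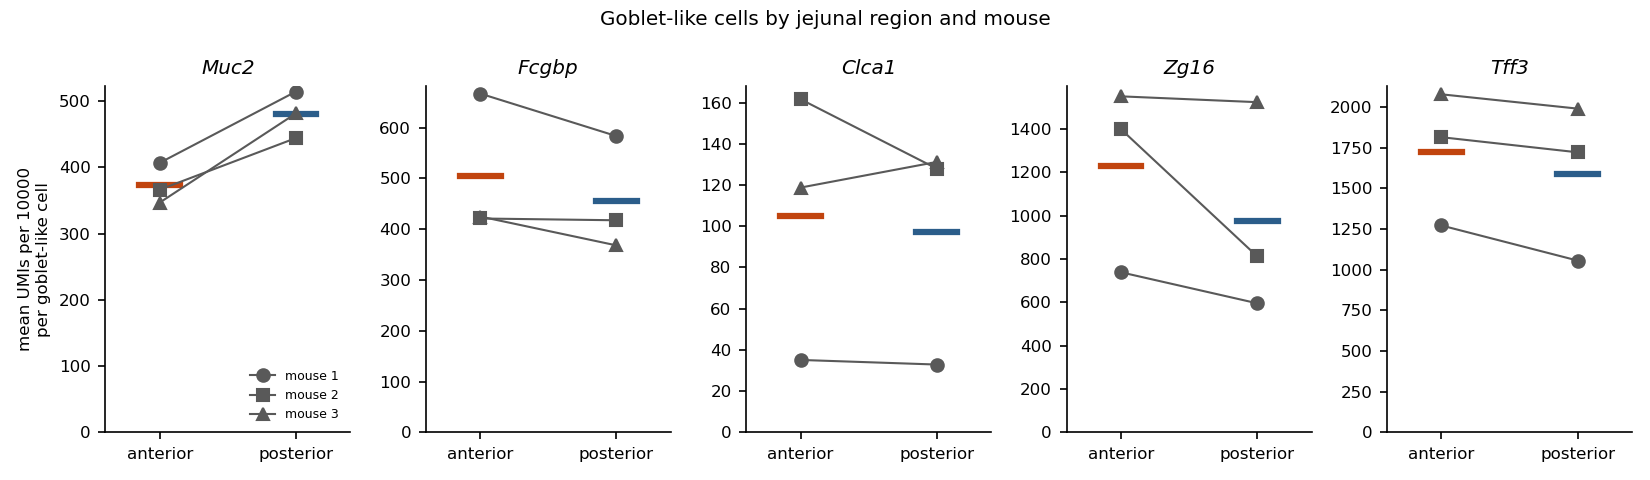
Mean level of each mucus gel gene (UMIs per 10000) in the anterior and posterior goblet-like cells, with a line joining the samples of each mouse and a coloured bar at the mean of 3. Muc2 is lower in the anterior sample of every mouse, Fcgbp, Zg16 and Tff3 are higher in it in every mouse, and the spread between mice is wider than the step between regions for all but Muc2.

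Other genes of mucus production were read from 5 lists. Of the enzymes and transporters of mucin O-glycosylation, 30 of 49 were measured in goblet-like cells and none passed in either direction, with a median log2 difference between anterior and posterior cells of -0.20, beside 0.02 over all 4270 genes tested. Nearest to the threshold were the sialyltransferase St6galnac2 (1.36 ± 0.85 CP10K in anterior and 0.257 ± 0.33 CP10K in posterior cells, log2 difference 1.86), the sulphate transporter Slc26a2 (2.87 ± 0.195 against 1.16 ± 0.636 CP10K, 1.30) and the UDP-N-acetylglucosamine transporter Slc35a3 (0.859 ± 0.355 against 0.228 ± 0.336 CP10K, 1.53), none of which passed (adjusted p = 0.998 each). Of 29 measured genes of mucin folding and endoplasmic reticulum stress, none passed and the median was -0.07. The lowest unadjusted p there belonged to the prolyl isomerase Fkbp2 (3.37 ± 1.22 CP10K in anterior and 6.93 ± 2.82 CP10K in posterior cells), the disulphide isomerase Pdia3 (0.979 ± 0.62 against 3.10 ± 2.65 CP10K) and the chaperone Hsp90b1 (1.27 ± 0.401 against 2.67 ± 2.14 CP10K).

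Of 10 measured goblet transcription factors none passed, with a median of -0.32, and Elf3 (2.69 ± 1.54 CP10K in anterior and 4.72 ± 1.82 CP10K in posterior cells), Klf4 (7.31 ± 3.42 against 12.7 ± 8.12 CP10K) and Cdx1 (2.01 ± 0.753 against 3.29 ± 0.781 CP10K) had the lowest unadjusted p. Of 18 measured genes of granule release and hydration none passed, with a median of 0.02 and the lowest unadjusted p for Syt7, a calcium sensor of exocytosis, for Sytl2, which tethers granules, and for Myo5c, a motor protein. Of 20 other mucus and mucus-processing genes none passed, with a median of -0.26. In that list 5 of 20 genes were under an unadjusted p of 0.05, beside 137 of all 4270 genes tested, 2 of 30 in the O-glycosylation list and 0 in each of the other lists (limma). The 5 were led by Guca2a, which encodes guanylin (20.4 ± 2.40 CP10K in anterior and 57.5 ± 40.2 CP10K in posterior cells, log2 difference -1.28), Dmbt1, a scavenger receptor secreted into mucus (1.96 ± 0.311 against 0.62 ± 0.797 CP10K, 1.91), and the antibacterial lectin Reg3g (7.02 ± 1.34 against 16.2 ± 7.52 CP10K, -1.08). Their adjusted p was 0.998 as well.

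Outside goblet-like cells, UMIs of Zg16 and Tff3 were present in nearly every cell. Zg16 had a UMI in 98.4% of enterocyte-like cells and Tff3 in 99.2%, at a median depth of 6879 UMIs, against 100% of goblet-like cells for both at a median depth of 2173 UMIs. After thinning to 1500 UMIs the enterocyte-like shares were 89.2% for Zg16 and 88.2% for Tff3. Muc2 had a UMI in 83.3% of enterocyte-like cells, Fcgbp in 79.8% and Clca1 in 61.7%. The proteins are known as products of goblet cells and not of enterocytes. Of the UMIs of the 5 genes, Zg16 took 33.8% to 43.2% in goblet-like and 35.5% to 45.8% in enterocyte-like cells of a sample, and Muc2 6.23% to 14.9% in goblet-like and 6.90% to 15.8% in enterocyte-like cells. Across the 18 pools, the median number of these UMIs in an enterocyte-like cell ranged from 7 to 181.5 and went with the number per cell in the pool (Pearson's r of log2 values 0.792, Spearman's rho 0.836, as a description, since each pool value includes those cells and the depth of a pool enters both numbers). No expression was read from these shares, and the part of free RNA in them was not tested.

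Levels also differed with depth between enterocyte-like clusters. The deep clusters 2 and 3 (median 10150 and 11452 UMIs) held a median of 44 and 62 UMIs of the 5 genes, and the shallow clusters 4 and 7 (median 1503 and 1639 UMIs) held 30 and 27, which is 45.2 and 54.0 CP10K against 183 and 154 CP10K. In enterocyte-like cells none of the 5 genes passed the test between regions (limma, 0 of 5006 genes passed, 218 at an unadjusted p under 0.05), and for none did the regions stay apart, against 9.27% of genes tested. Fcgbp averaged 17.3 ± 4.34 CP10K in anterior and 11.1 ± 2.57 CP10K in posterior cells (log2 difference 0.63, SE 0.38, adjusted p = 0.999), and Zg16 66.1 ± 13.6 CP10K in anterior and 40.8 ± 19.1 CP10K in posterior cells (0.77, SE 0.46). The difference of the region effect between goblet-like and enterocyte-like cells passed for none of the 5, nor for any of 4069 genes (limma, 84 at an unadjusted p under 0.05). For Muc2 it was -0.63 (SE 0.39, 95% interval -1.46 to 0.20).

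Crypt progenitor-like cells, the dividing and stem-like cells of the crypt, were set against enterocyte-like cells of the same samples (limma with the sample as a block, adjusted over 5347 genes, of which 30% passed, 14.8% as higher and 15.2% as lower). All 5 genes passed as lower in crypt progenitor-like cells, a result that rested on how cells were weighted and grouped. Zg16 averaged 21.2 ± 9.73 CP10K in crypt progenitor-like and 53.5 ± 20.3 CP10K in enterocyte-like cells (SD, n = 6 each, log2 difference -1.45, SE 0.33, adjusted p = 0.00195). Tff3 averaged 25.9 ± 14.2 CP10K in crypt progenitor-like and 50.2 ± 14.4 CP10K in enterocyte-like cells (-1.08, SE 0.24, adjusted p = 0.00141). Median depth was 11939 UMIs in crypt progenitor-like and 6879 UMIs in enterocyte-like cells. With UMIs summed over cells, Zg16 still passed at -0.72 (adjusted p = 0.0371) while Tff3 stood at -0.14 (adjusted p = 0.685), and Muc2, Fcgbp and Clca1 did not pass either. With the 5 genes in the clustering, where 397 of the 881 enterocyte-like cells kept that name, none passed and the differences of Tff3 (0.18) and Clca1 (0.24) had the other sign. Muc2, Fcgbp and Clca1 were near or below 1 UMI per cell at 1500 UMIs (6.67 CP10K) in both classes, and no change was read from them.

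Between regions, crypt progenitor-like cells had 31.8, 49.6 and 28.5 CP10K of Tff3 in the anterior samples of mice 1, 2 and 3, and 15.8, 9.37 and 20.6 CP10K in the posterior ones. The regions did not overlap, as was so for 9.72% of 4879 genes, and Tff3 was higher in the anterior sample in 3 of 3 mice. The log2 difference was 1.28 (SE 0.29), and neither Tff3 nor any other gene passed (limma, adjusted p = 0.361 for Tff3, 250 genes at an unadjusted p under 0.05). With the mouse as a block 5 genes passed, named here after their values were seen: the secreted lectin Reg4, the goblet peptide Spink4, Fabp1 and Adh1 were higher in anterior cells and Reg3g was lower. The adjusted p of Tff3 was then 0.214, and it ranged from 0.184 to 0.999 over the alternatives. The posterior samples of mice 2 and 3 held 11 and 12 of these cells.

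In enteroendocrine-like cells, the hormone-secreting cells of the epithelium, Tff3 was the member that differed from enterocyte-like cells. Tff3 had 95.5, 157 and 143 CP10K in the anterior and 118, 94.9 and 78.1 CP10K in the posterior enteroendocrine-like cells of mice 1, 2 and 3, against 42.2, 62.4 and 69.2 CP10K in the anterior and 46.9, 28.8 and 51.6 CP10K in the posterior enterocyte-like cells. Every enteroendocrine-like sample lay above every enterocyte-like sample, which rested on 3 cells described below. Tff3 was higher in enteroendocrine-like cells by 1.29 on the log2 scale (SE 0.25, limma with the sample as a block, adjusted p = 0.000783), in a fit in which 19.6% of 5347 genes passed, 4.19% as higher and 15.4% as lower. The posterior sample of mouse 3 had 4 such cells and did not enter the fit. Median depth was 3428 UMIs in enteroendocrine-like and 6879 UMIs in enterocyte-like cells. It was 1341 against 11113 UMIs in the posterior sample of mouse 1, but 5228 against 2366.5 UMIs in the anterior sample of mouse 3. The part of depth in the difference was not tested. The other members did not pass, at -0.29 for Muc2, 0.34 for Fcgbp, -0.51 for Clca1 and -0.30 for Zg16, with adjusted p from 0.376 to 0.642. With the 5 genes in the clustering, Fcgbp passed as well (1.10, adjusted p = 0.0299) and Tff3 stood at 2.12.

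Of the 4 enteroendocrine-like cells that had over 10% of their UMIs in the 5 genes, 3 came from the posterior sample of mouse 1. Without them Tff3 stood at 51.7 CP10K in that sample, against 118 CP10K with them, and lay below the highest enterocyte-like sample (69.2 CP10K) and below Zg16 in the same cells (58.8 CP10K). Over the 6 samples Tff3 averaged 102 ± 40.2 CP10K without the 4 cells, against 115 ± 30.7 CP10K with them (SD, n = 6). With such cells left out of enterocyte-like cells too, a setting added after the data were seen, Tff3 ranged from 18.2 to 62.8 CP10K there, and the difference between the classes was 1.40 (SE 0.26, limma, adjusted p = 0.000494). With every cell thinned to 1500 UMIs and all samples pooled, Tff3 stood at 95.4 CP10K in enteroendocrine-like cells (14.3 UMIs per cell) and 34.2 CP10K in enterocyte-like cells (5.13 UMIs per cell). Over pooled cells before thinning it had 107 CP10K in enteroendocrine-like and 49.3 CP10K in enterocyte-like cells. With enterocyte-like cells of cluster 3 left out, the difference was 0.68 and no longer passed (limma, adjusted p = 0.104). Cluster 3 was deep, was led by Mt2, Reg3b and Reg3g and had all 3 of 3 measured markers of B or plasma cells raised. None of these markers was measured in both regions, so each was scored in the cells of 1 region. With summed UMIs and cluster 3 kept, the difference was 2.12 (limma, adjusted p = 5.62e-07).

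The ratio of Tff3 to Zg16 UMIs is free of the scaling to a cell's total. Enteroendocrine-like cells of mice 1, 2 and 3 had ratios of 2.23, 6.80 and 4.76 anteriorly and of 1.20, 7.47 and 2.75 posteriorly, while enterocyte-like cells kept to 0.776 to 0.989. The ratio was higher in enteroendocrine-like cells in 6 of 6 samples, by 1.94 ± 1.06 on the log2 scale (SD, n = 6). An exact sign-flip permutation test (two-sided) gave p = 0.0312, the smallest that 6 samples can give. Both permutation tests here flip each sample on its own, although the 6 samples came as pairs of regions from 3 mice. They thus count more independent units than there were mice, and no conclusion was drawn from their p. Without the cells over 10% the ratio in the posterior sample of mouse 1 was 1.04 in enteroendocrine-like and 0.887 in enterocyte-like cells. Adjusted over this comparison and that of crypt progenitor-like cells, p was 0.0625, which did not pass. With 6 samples it could pass only if both comparisons reached the smallest p, so the adjusted p does not decide the question. The 6 samples include the posterior sample of mouse 3, whose 4 enteroendocrine-like cells were too few for the limma fit. In crypt progenitor-like cells the ratio was higher than in enterocyte-like cells in 5 of 6 samples, by 0.59 ± 0.64 (exact permutation p = 0.125, adjusted 0.125). Goblet-like cells themselves had 0.640 to 1.00 in cluster 8 and 1.95 to 4.40 in cluster 1. The comparison was chosen after the data were seen, and the part of goblet cell RNA in the enteroendocrine-like values was not tested.

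**Figure D5:**
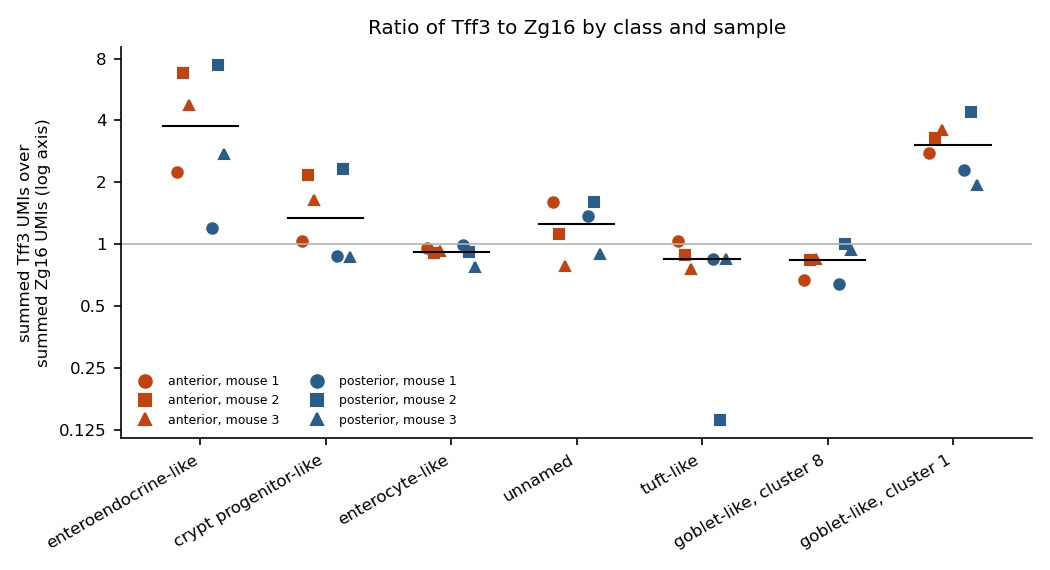
Summed Tff3 UMIs over summed Zg16 UMIs (log axis) by class, one point per sample, coloured by region and shaped by mouse, with a line at the median. Enteroendocrine-like cells range from 1.20 to 7.47 and enterocyte-like cells from 0.776 to 0.989, while goblet-like cells range from 0.640 to 1.00 in cluster 8 and from 1.95 to 4.40 in cluster 1.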

How the data were processed

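Single-cell MARS-seq of EpCAM-positive jejunal cells was deposited as 2 gene-by-cell tables, 1 per region. The submitters' processing notes name R 3.5.1, STAR 2.6.1b, cutadapt 1.18, UMI-tools 1.0.0 and bcl2fastq, and the builds GRCm38 and mm10; counting settings and strand use are not given in the sources used here. The deposited values are log2 values from which, as the values show, the authors removed a linear term per gene (an offset per pool and 2 covariates). Undoing that term gave log2(UMI/size factor + 1) and whole UMI counts for 100% of values (tolerance 0.01), tested on simulated tables. Of 5674 shared genes, 5671 with a unique symbol held 98.0% of UMIs. Each cell's counts were scaled to 10000 UMIs.

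Cells were clustered with scanpy 1.11.5 (1500 variable genes, 25 components, 15 neighbours, Leiden resolution 1) without the 5 genes and named from marker lists. No doublet caller was run. The naming rule was chosen, of 3 tried, after the clusters were seen, so differences from the study's own cell types may come from these rebuilt names. Means of a class in a sample with at least 5 cells were tested as log2(CP10K + 0.2) with limma 3.58.1 (trended, Benjamini-Hochberg over every gene that averaged 0.2 CP10K or more, threshold 0.05). Samples and not cells were the replicates. A fold change on this scale understates that of low genes. Same-numbered samples are the same mouse, but the main region test was unpaired. Over all genes tested, deviations of goblet-like cells from their region's mean correlated within mice at 0.269, 0.042 and 0.0615. For each of the 5 members the mouse block lowered the SE, for Muc2 from 0.24 to 0.085, and none passed with it. Depth was 1640578 to 3157105 UMIs per sample, which limits mostly the low genes. Alternatives were other pseudocounts, filters, scalings, clusterings, a replicate block and leaving out each sample. In each list, genes that passed were to be named, or else the 3 with the smallest p. The members and lists were chosen with earlier results of these data known.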

Additional observations from a re-analysis of the deposited data

How the results depend on the processing

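In goblet-like cells the region test called 0 to 1 genes when single samples were left out and 8 with both samples of mouse 1 left out and the mouse as replicate block, Muc2 (-0.38) and Zg16 (0.40) among them, in a fit with 1 residual degree of freedom whose calls were not counted. Left-out samples moved the anterior minus posterior difference of Fcgbp between -0.081 and 0.33, of Clca1 between -0.56 and 0.75, of Tff3 between -0.13 and 0.34 and of Zg16 between 0.073 (without posterior replicate 1) and 0.75 (without posterior replicate 3). In cluster 1 alone Fcgbp stood at -0.022 and Clca1 at -0.13. Left-out samples also moved Clca1 between -0.011 and 1.00 in enterocyte-like and between -0.35 and 0.45 in crypt progenitor-like cells, Tff3 between -0.69 and 0.014 in the difference of region effects, and the calls in crypt progenitor-like cells between 0 and 1, which became 5 with the mouse as replicate block. The replicate block changed no other call between regions. Scaling without the 5 genes moved the median log2 difference of all genes in goblet-like cells to 0.11, against 0.02.

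For crypt progenitor-like minus enterocyte-like cells, summed UMIs gave Muc2 -0.36, Fcgbp -0.48, Clca1 -0.29 and Tff3 -0.14, and clustering with the 5 genes gave Muc2 -0.040, Fcgbp -0.075, Clca1 0.24, Zg16 -0.31 and Tff3 0.18. Clca1 (-1.03) did not pass with no replicate block and ranged from -1.21 to -0.88 with samples left out. For enteroendocrine-like minus enterocyte-like cells, summed UMIs gave Muc2 0.27 and Zg16 0.21, clustering with the 5 genes gave Muc2 0.52, Fcgbp 1.10, Clca1 0.58 and Zg16 0.59, leaving out cluster 3 gave Fcgbp -0.24 and Tff3 0.68, and left-out samples moved Fcgbp between -0.19 and 0.92. The cause was not tested.

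The median correlation of Muc2 with Fcgbp was 0.730 after thinning, 0.754 when scaled without the 5 genes, 0.396 within cluster 1 and 0.834 within cluster 8. That of Fcgbp with Zg16 was -0.171 after thinning, 0.286 when scaled without the 5 genes, 0.20 within cluster 1 and 0.415 within cluster 8. That of Clca1 with Zg16 was 0.205 within cluster 1. Depth limits Muc2, Fcgbp and Clca1 outside goblet-like cells, and 3 mice limit the region test.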

Other observations

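Each well also carries a sort label, pos or neg, for a marker that the labels do not name. In goblet-like cells Zg16 averaged 1189 ± 490.4 CP10K in wells labelled pos and 1008 ± 379 CP10K in wells labelled neg (SD, n = 6 samples) and was higher in the pos wells of 6 of 6 samples. Tff3 averaged 1687 ± 449 CP10K in pos and 1621 ± 440 CP10K in neg wells and was higher in the pos wells of 5 samples. Muc2, Fcgbp and Clca1 were higher in the pos wells of 3 of 6 samples. Goblet-like cells made up 23.7% ± 19.6 of pos and 23.2% ± 20.2 of neg wells. No test was set on these values.

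The unnamed cells of cluster 6 were uneven in the 5 genes. Of 193, 47 had over 10% of their UMIs in the 5 genes, with a highest share of 59.8%, and the median share was 3.10%. At 1500 UMIs per cell, which only 64 of them reached, the median cell had 3 UMIs each of Zg16 and Tff3 against a mean of 22.7 for Zg16 and 34.1 for Tff3.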
